A study of Homo sapiens with 9 samples.

Results

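The partners of the nuclear cap-binding complex and the factors that carry small nuclear RNAs (snRNAs) out of and back into the nucleus were examined as a set of 9 genes out of the 60609 gene identifiers in the count tables. The members were a fixed list of names (NCBP1, NCBP3, SRRT, PHAX, ZC3H18, XPO1, SNUPN, TGS1 and NELFE), each matched to 1 Ensembl identifier through its GENCODE symbol, and no measured value was used to choose them. All 9 passed the filter on low counts. They were read in 9 RNA libraries of U2-OS, an established human osteosarcoma line grown in DMEM with fetal bovine serum. Per the labels, clones A1 and A4 overexpress NCBP2, the small subunit that holds the cap, and gave 3 libraries each, lettered A, B and C. The control group had 3 clones made in the same way with an empty vector, 1 library each (Vector2A, Vector3B and Vector1C, called vector A, B and C here after their letters). The labels do not describe the promoter or the coding insert of the NCBP2 vector, and each NCBP2 group is 1 clone. They also do not say whether the 3 libraries of a clone were separate cultures, so the spread within an NCBP2 clone may be technical in part. The vector libraries differ by clone as well. The p-values pool these kinds of spread, measure the spread between these libraries and cannot speak for NCBP2 clones in general.

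A 7-methylguanosine cap is added to every RNA polymerase II transcript soon after its synthesis starts, and the cap-binding complex of NCBP1 and NCBP2 binds it in the nucleus. The bound complex hands the RNA on to other proteins. SRRT (also called ARS2) bridges it to factors of processing, export and decay. PHAX joins it to the export receptor XPO1 on snRNAs. In the cytoplasm, snRNAs receive a ring of Sm proteins, TGS1 adds methyl groups to the cap, and SNUPN (snurportin) binds this trimethylated cap for the return to the nucleus.

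RNU4-1, a U4 snRNA that travels this route, was counted at a high level, and its sequence is shown as an example of the cargo on which PHAX, TGS1 and SNUPN act. It is the GENCODE release 44 transcript on GRCh38, as DNA letters in the sense of the RNA, at chr12:120293097-120293237 on the minus strand. The letters AATTTTTG were searched as the site on which the Sm ring assembles, on the RNA strand only, and the capitals mark the match.
RNU4-1: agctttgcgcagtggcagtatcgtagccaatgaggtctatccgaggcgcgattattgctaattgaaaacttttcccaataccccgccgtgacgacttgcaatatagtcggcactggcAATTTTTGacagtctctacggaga
The searched letters stand in 70 of the 1901 annotated snRNA transcripts (3.68%), a class that holds many inexact copies. Reads that align to several places are not in the counts.

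Gene counts per library ran from 29234022 to 50554080, and the 9 members had from 193 counts (SNUPN) to 45025 counts (XPO1) in a library. Clone A1 replicate A stood apart, with counts in 21823 genes against 25390 to 29787 in the others and correlations of log2 CPM with the others of 0.899 to 0.928. It was also the library with the fewest gene counts (29234022) and the largest share of reads not assigned to a gene (63.6%). Of the osteoblast and mesenchymal markers, VIM, SPARC, COL1A1, RUNX2 and FN1 were each at 182.4 CPM or more in every library, while COL1A2 was at 1.15 CPM or less. Markers of other cell types were low, with EPCAM at 2.42 to 5.58 CPM, CDH1 and PTPRC at 3.63 CPM or less, ALB at 0.137 CPM or less and CD3E at 0 counts in all libraries. TERT, which this telomerase-negative line lacks, also had 0 counts. CPM is the usual depth-scaled count, with the library's gene counts scaled by TMM. In a bulk library, less RNA in each cell and fewer cells with the RNA cannot be told apart.

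None of the 9 members differed between groups past a Benjamini-Hochberg adjusted p of 0.05 over all 21682 genes tested. By edgeR's quasi-likelihood test the count was 0 of 9 for the 6 NCBP2 libraries against vector, where 0.0184% of all genes passed, and 0 of 9 for clone A1 against vector (0.0646% of all genes). It was likewise 0 of 9 for clone A4 against vector (0.115%) and for clone A4 against clone A1 (0.161%). DESeq2 and voom with library weights also gave 0 of 9 in each comparison. At an unadjusted p under 0.05, edgeR gave 1 member, XPO1 in clone A1, where 7.51% of all genes had such a p. It gave 0 of 9 in the NCBP2 arm (5.71% of all genes), in clone A4 against vector (5.25%) and between the clones (6.63%). DESeq2 gave 0 in each comparison at that unadjusted threshold, and voom 0 in the NCBP2 arm and 1 in each of the other comparisons. The smallest adjusted p of any member over all alternatives was 0.324. The median log2 fold change of the 9 members was 0.11 in the NCBP2 arm, 0.01 in clone A1 and 0.05 in clone A4, against medians over all genes of 0.02, -0.02 and 0.03. Both clones were compared with the same vector libraries, so their values are not independent.

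**Figure D1:**
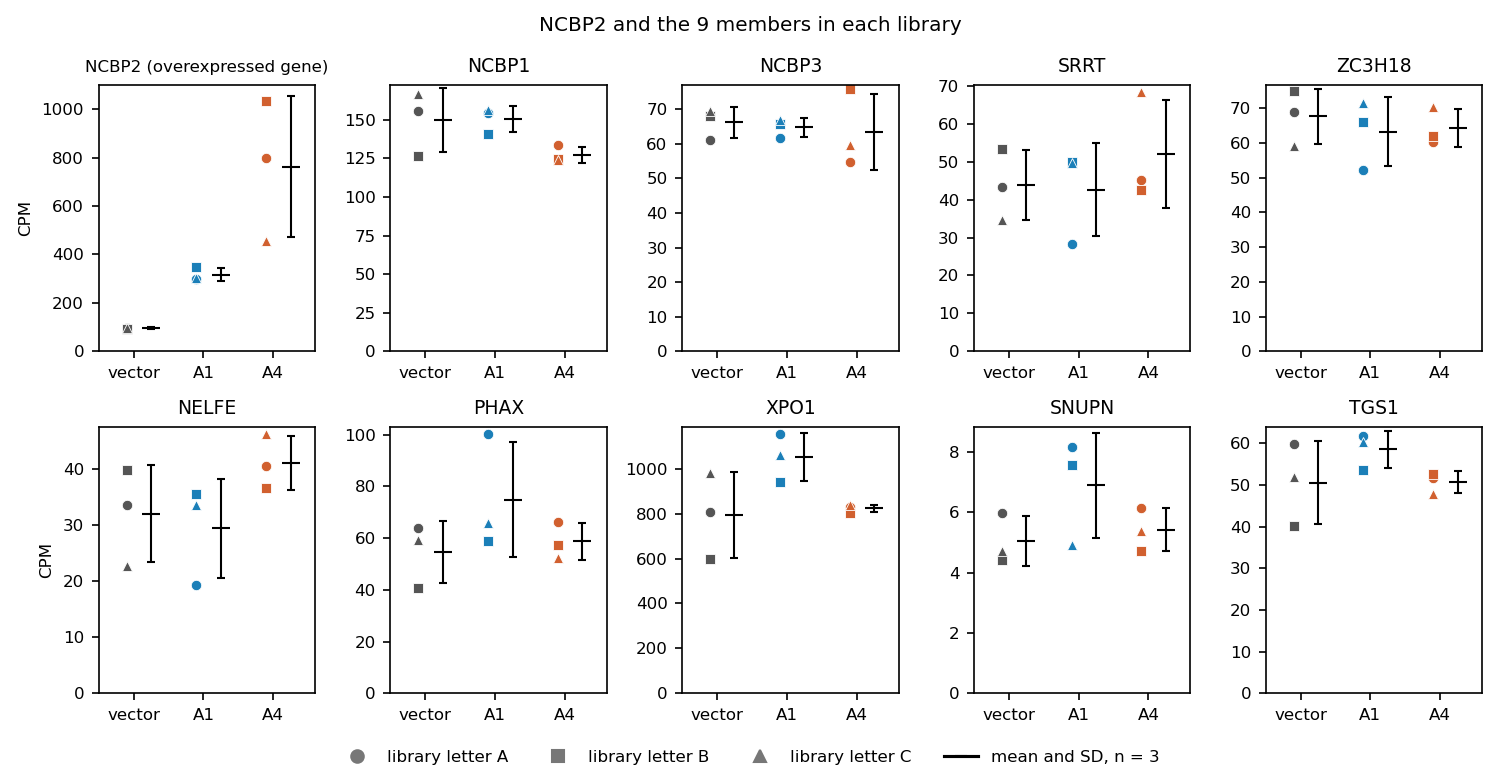
Level of NCBP2 and the 9 members in CPM (linear axes from 0), 1 point per library by group and letter, with the mean and SD of 3 libraries as black bars. NCBP2 lies at 298.9 CPM or more in the NCBP2 clones and at 98.4 CPM or less in the vector libraries, while every member overlaps between each clone and the vector libraries.

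NCBP1, the large subunit that stabilises NCBP2 on the cap, was at the vector level in clone A1 within its error, and its mean was lower in clone A4. The gene (ENSG00000136937.13) lies on chromosome 9 at 97633668 to 97673748, plus strand. It measured 155.9, 126.8 and 166.6 CPM in vector A, B and C, 154.5, 140.7 and 156.3 CPM in clone A1 and 133.3, 124.5 and 124.0 CPM in clone A4. An unnamed gene lies on its opposite strand, where 3.72% to 10.5% of its stranded reads fell. Clone A4 lay below all of clone A1 but overlapped the vector libraries through vector B. The log2 fold change of NCBP1 was 0.01 (SE 0.153, 95% interval -0.33 to 0.34) in clone A1 and -0.23 (SE 0.154, -0.57 to 0.10) in clone A4, with adjusted p of 0.996 and 1.0 by edgeR. For the NCBP2 arm it was -0.11 (-0.41 to 0.20), with an upper bound of a 1.15-fold rise. That fit treats the 6 NCBP2 libraries as independent, though they come from 2 clones that did not overlap in NCBP1. The interval therefore describes these libraries and not NCBP2 clones in general.

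NCBP2, the overexpressed partner, was higher in every library of both clones than in any vector library. NCBP2 (ENSG00000114503.11, chromosome 3, 196935402 to 196942594, minus strand, with NCBP2-AS1 on the opposite strand) averaged 95.8 CPM ± 4.46 in the vector libraries, 317.3 CPM ± 27.1 in clone A1 and 762.6 CPM ± 291.0 in clone A4 (SD, n = 3 each). Its log2 fold change was 1.73 in clone A1 and 2.99 in clone A4 (edgeR adjusted p 0.0327 and 0.000417). The clone A1 call was lost in 7 of 17 alternatives. In the NCBP2 arm and between the clones NCBP2 itself was not called, with edgeR adjusted p of 0.123 and 0.0764, so a count of 0 members there comes from tests that also missed the overexpressed gene. Per kilobase of annotated exon, the ratio of NCBP2 to NCBP1 was 0.680, 0.770 and 0.636 in vector A, B and C. Clone A1 had ratios of 2.08, 2.67 and 2.10, and clone A4 had 6.44, 8.96 and 3.97. The 3 groups did not overlap in this ratio. With the length of the MANE Select transcript of each gene instead of all annotated exons, the mean ratio was 1.53 ± 0.151 in the vector libraries, 5.03 ± 0.732 in clone A1 and 14.2 ± 5.50 in clone A4 (SD, n = 3 each). An inserted coding sequence without the untranslated regions would be shorter than either length, and the absolute ratio depends on that length.

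NCBP3, a cap-binding protein that can also join NCBP1, differed little between the groups. The gene (ENSG00000074356.17, chromosome 17, 3802158 to 3846246, minus strand) measured 61.0, 67.9 and 69.5 CPM in vector A, B and C, 61.6, 65.5 and 66.9 CPM in clone A1 and 54.8, 75.9 and 59.5 CPM in clone A4. The highest and the lowest library both belonged to clone A4. Its log2 fold change was -0.03 (SE 0.171, 95% interval -0.40 to 0.34) in clone A1 and -0.06 (SE 0.171, -0.43 to 0.31) in clone A4.

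Effectors recruited to the cap-bound complex showed wide spreads within groups. SRRT (ENSG00000087087.20, chromosome 7, 100875103 to 100888664, plus strand) measured 43.4, 53.2 and 34.7 CPM in vector A, B and C, 28.4, 49.9 and 49.5 CPM in clone A1 and 45.2, 42.5 and 68.3 CPM in clone A4. The low value of 28.4 CPM belonged to the library that stood apart. The log2 fold change of SRRT was -0.04 (SE 0.266, 95% interval -0.62 to 0.54) in clone A1 and 0.25 (SE 0.266, -0.33 to 0.83) in clone A4. Without clone A1 replicate A the clone A1 value was 0.19, and without clone A4 replicate C the clone A4 value was -0.02.

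ZC3H18, a zinc-finger protein that links SRRT to nuclear RNA decay, differed less. It lies on chromosome 16 at 88570403 to 88631964 (ENSG00000158545.15, plus strand) and measured 69.0, 74.9 and 59.1 CPM in vector A, B and C. In clone A1 it measured 52.2, 66.1 and 71.5 CPM, and in clone A4 60.3, 61.9 and 70.4 CPM. All 3 groups overlapped, with log2 fold changes of -0.10 (SE 0.178, 95% interval -0.48 to 0.29) in clone A1 and -0.08 (SE 0.178, -0.46 to 0.31) in clone A4.

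NELFE is the RNA-binding subunit of the negative elongation factor, which holds RNA polymerase II near the promoter. The gene (ENSG00000204356.14, chromosome 6, 31952087 to 31959038, minus strand) measured 33.6, 39.9 and 22.8 CPM in vector A, B and C, 19.3, 35.6 and 33.7 CPM in clone A1 and 40.6, 36.7 and 46.3 CPM in clone A4. Every clone A4 library lay above every clone A1 library, while both clones overlapped the vector libraries. The difference of clone A4 from clone A1 was 0.48 in log2 units (SE 0.265, 95% interval -0.10 to 1.06, edgeR adjusted p 0.790). Without clone A1 replicate A that difference was 0.26. Against vector the log2 fold change was -0.12 (-0.70 to 0.46) in clone A1 and 0.36 (-0.22 to 0.94) in clone A4. Without vector C the clone A4 value was 0.14.

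For snRNA export, PHAX is the adaptor between the cap-bound complex and XPO1, and its phosphorylation is needed to recruit XPO1. PHAX (ENSG00000164902.14, chromosome 5, 126600925 to 126627252, plus strand) measured 63.9, 40.9 and 59.2 CPM in vector A, B and C, 100.2, 58.7 and 65.9 CPM in clone A1 and 66.3, 57.6 and 52.4 CPM in clone A4. Clone A1 replicate A was the highest library and vector B the lowest, and the remaining 7 lay between 52.4 and 66.3 CPM. The log2 fold change was 0.45 (SE 0.235, 95% interval -0.06 to 0.97, edgeR adjusted p 0.702) in clone A1 and 0.10 (SE 0.235, -0.41 to 0.61) in clone A4. Leaving out clone A1 replicate A gave 0.20 for clone A1, leaving out vector B gave 0.28, and voom, which weights the libraries, gave 0.10.

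XPO1 (CRM1), the receptor that takes the snRNA complex and many proteins through the nuclear pore, was the most abundant member. It lies on chromosome 2 at 61476032 to 61538741 (ENSG00000082898.17, minus strand, with USP34-DT on the opposite strand) and measured 805.2, 595.7 and 980.7 CPM in vector A, B and C. In clone A1 it measured 1155, 940.8 and 1059 CPM and in clone A4 828.3, 803.8 and 836.7 CPM. Clone A1 replicate B lay below vector C, so clone A1 and vector overlapped, and all of clone A4 lay below all of clone A1. The log2 fold change in clone A1 was 0.41 (SE 0.177, 95% interval 0.02 to 0.79), with an unadjusted p of 0.0405 and an adjusted p of 0.636 by edgeR. In 8 of 17 alternatives the unadjusted p stayed under 0.05, and without vector B the value was 0.24. In clone A4 the log2 fold change was 0.05 (SE 0.177, -0.33 to 0.44). For clone A4 against clone A1 it was -0.35 (SE 0.177, -0.74 to 0.03, edgeR adjusted p 0.773).

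TGS1 and SNUPN act after the Sm ring is in place. TGS1 (ENSG00000137574.11, chromosome 8, 55773446 to 55826445, plus strand) measured 59.8, 40.2 and 51.9 CPM in vector A, B and C, 61.8, 53.6 and 60.3 CPM in clone A1 and 51.8, 52.7 and 47.8 CPM in clone A4. The clones did not overlap each other, and both overlapped the vector libraries. Its log2 fold change was 0.21 (SE 0.181, 95% interval -0.18 to 0.60) in clone A1 and 0.00 (SE 0.181, -0.39 to 0.40) in clone A4.

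SNUPN was the least abundant member, with 193 to 293 counts per library. It lies on chromosome 15 at 75598083 to 75626469 (ENSG00000169371.14, minus strand) and measured 5.98, 4.43 and 4.71 CPM in vector A, B and C. In clone A1 it measured 8.16, 7.58 and 4.91 CPM and in clone A4 6.15, 4.73 and 5.40 CPM. Unnamed GENCODE genes overlap it on both strands, and reads on the opposite strand were 3.98% to 19.7% of its stranded reads. The log2 fold change of SNUPN was 0.45 (SE 0.294, 95% interval -0.19 to 1.09) in clone A1 and 0.11 (SE 0.293, -0.53 to 0.74) in clone A4, the widest intervals of the set.

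**Figure D2:**
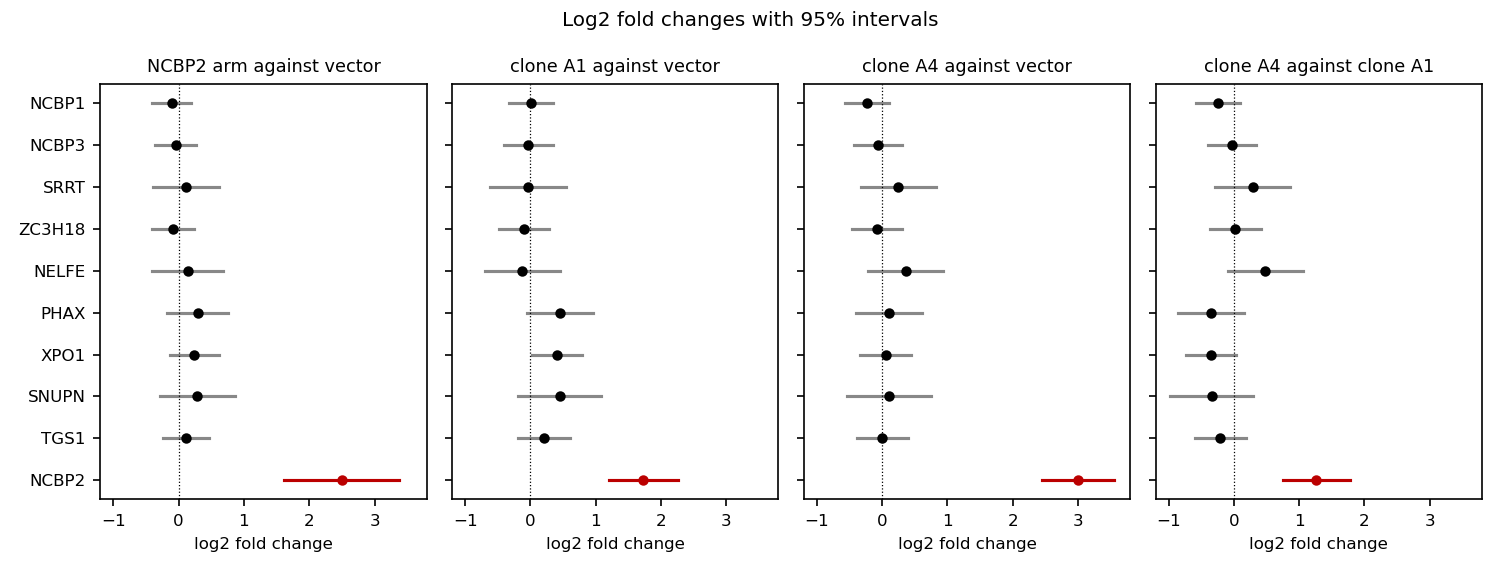
Log2 fold changes (points) with 95% intervals (lines) of the 9 members and NCBP2 in 4 comparisons, from edgeR's fits. The interval of XPO1 in clone A1 (0.02 to 0.79) is the only member interval that leaves out 0, and NCBP2 lies at 1.73 and 2.99 in clones A1 and A4.

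No member was beyond the range of the vector libraries in every library of a clone. The count of such genes was 0 of 9 in the NCBP2 arm (3.74% of all genes), 0 of 9 in clone A1 (14.2%) and 0 of 9 in clone A4 (12.1%). Between the clones it was 4 of 9, NCBP1, XPO1 and TGS1 lower and NELFE higher in clone A4, where 13.6% of all genes did not overlap. None of these 4 passed the adjusted threshold in edgeR, and several of the members moved together from library to library. The median of the 9 members between the clones was -0.21, against 0.04 over all genes.

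Levels of different genes were compared per kilobase of annotated exon in the vector libraries. XPO1 (33.3 ± 8.08) and NCBP1 (27.2 ± 3.75) led, followed by PHAX (14.9 ± 3.32), NELFE (12.1 ± 3.26) and TGS1 (11.1 ± 2.16), all in CPM per kilobase (SD, n = 3). SRRT was at 9.01 ± 1.91, ZC3H18 at 7.84 ± 0.922, NCBP3 at 4.49 ± 0.306 and SNUPN at 1.43 ± 0.235 (SD, n = 3). Neighbours in this order overlapped between libraries except at NCBP1 and PHAX, at ZC3H18 and NCBP3, and at NCBP3 and SNUPN. With MANE Select lengths, NELFE and ZC3H18 moved ahead of PHAX and SRRT ahead of TGS1, while XPO1 and NCBP1 still led and NCBP3 and SNUPN were still the lowest. The values themselves depended on the length used, since XPO1 was then at 159.2, NCBP1 at 30.1 and ZC3H18 at 18.3 CPM per kilobase in the vector libraries.

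The members did not vary independently from library to library. SRRT, ZC3H18 and NELFE rose and fell together over the 9 libraries, with Pearson correlations of log2 CPM between 0.74 and 0.92 for the 3 pairs. NCBP1, PHAX, XPO1 and TGS1 formed a second set, with 0.55 to 0.85 for the 6 pairs. All 12 pairs between the sets had negative values, from -0.78 to -0.34. Without clone A1 replicate A, the 3 ranges were 0.47 to 0.84, 0.54 to 0.92 and -0.84 to -0.20. These sets were chosen after the values were seen, the points share depth and base composition of their libraries, and the correlations are a description.

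The sets also differ in base composition. In the longest annotated transcript, the share of G and C was 58.3% for SRRT, 58.0% for ZC3H18 and 56.3% for NELFE. It was 37.7% for XPO1, 40.3% for NCBP1, 40.9% for TGS1 and 41.9% for PHAX, with NCBP3 (47.3%) and SNUPN (52.2%) between the sets. Vector B was higher than the mean of the other vector libraries in SRRT by 0.46 and in NELFE by 0.53 on the log2 scale, and lower in PHAX by -0.59 and in XPO1 by -0.58. Vector C showed the opposite, with -0.47 in SRRT, -0.68 in NELFE and 0.50 in XPO1. The differences within a group cancel for each gene by construction, so vector B and C are not separate observations here. Across the 9 members, the difference of a library from the others of its group had a correlation with GC content of 0.90 in vector B, -0.92 in vector C and -0.72 in clone A1 replicate A. Across 21586 genes with a known GC content it was 0.52, -0.38 and -0.34 in the same libraries. In the other libraries the correlation across the 9 members ran from -0.497 in clone A4 replicate B to 0.865 in clone A1 replicate B. Across the 21586 genes it was -0.071 and 0.200 in those libraries. Genes are not independent replicates, and the part of base composition in the members' values is given only through the corrected fit that follows.

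**Figure D3:**
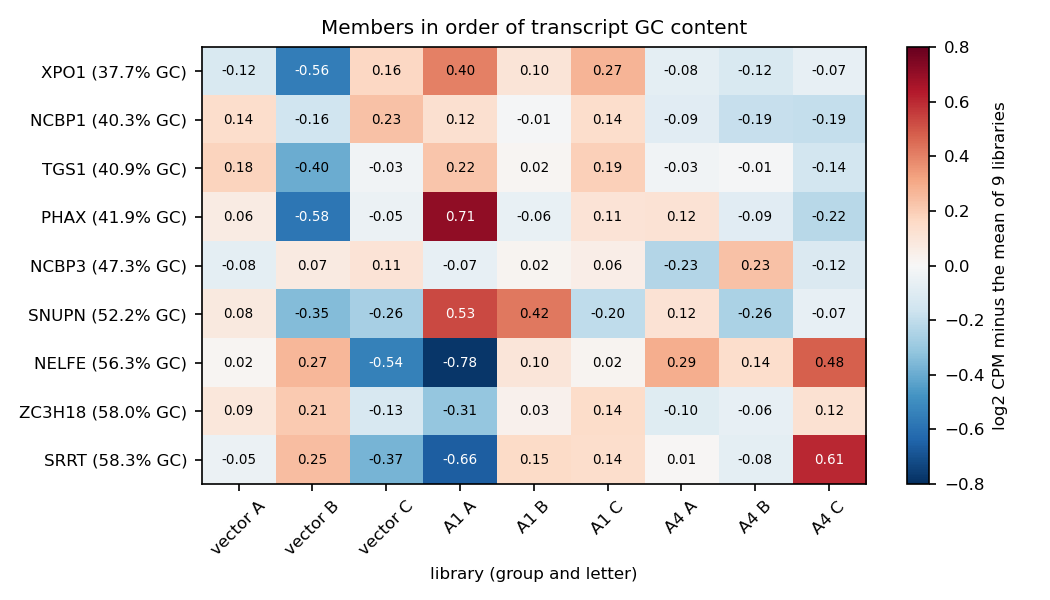
Log2 CPM of each member in each library minus its mean over the 9 libraries (colour and number), with members ordered from low (top) to high GC content of the longest transcript. Clone A1 replicate A is positive in the 4 members of lowest GC content and negative in the 3 of highest GC content, and vector B shows the reverse.

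A fit with a correction of each library for GC content, added after the data were seen, gave smaller errors for 8 of the 9 members and larger ones for SNUPN. The median SE of the 9 members fell from 0.173 to 0.131 in the NCBP2 arm, and that of SRRT from 0.234 to 0.108, while that of SNUPN went from 0.266 to 0.288. No member passed the adjusted threshold in this fit either, with 0 of 9 in each of the 4 comparisons and a smallest adjusted p of 0.329 by edgeR, for PHAX in clone A1. PHAX in clone A1 was 0.38 (95% interval 0.05 to 0.72, unadjusted p 0.0279), and XPO1 in clone A1 was 0.23 (-0.07 to 0.53). NCBP1 in the NCBP2 arm was -0.17 (-0.41 to 0.07), and SRRT was 0.15 (-0.08 to 0.38). Over all genes, the same correction raised the number of called genes from 4 to 50 in the NCBP2 arm.

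Other genes of the route were read from lists chosen with earlier results known. Of 12 further effectors and relatives of the cap-bound complex (NELF subunits, ALYREF, MTREX and others), 11 were tested and 0 passed in any comparison by edgeR, with 0 at an unadjusted p under 0.05. NCBP2L, the paralog of NCBP2, had 0 counts in all libraries. Of 9 genes of the Ran cycle and the kinase CK2, which drive export, 0 passed and 0 had an unadjusted p under 0.05. The smallest p values belonged to RANBP2 in clone A1 and CSNK2A1 in clone A4. RANBP2, a pore protein, ranged from 106.3 CPM in vector B to 515.8 CPM in clone A1 replicate A.

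Of 18 genes of snRNP assembly (Gemins, the PRMT5 methylosome and the Sm proteins), 0 passed in any of the 4 comparisons by edgeR. At an unadjusted p under 0.05 there was 1 in each comparison, SNRPG in the NCBP2 arm and clone A1 and SNRPD1 in clone A4 against either group. That is 1 of 18 beside 5.71%, 7.51%, 5.25% and 6.63% of all genes in the 4 comparisons, so these genes are described for their own values and not as a result about the list. SNRPD1 is the Sm D1 protein of the ring. It measured 80.8, 59.1 and 70.1 CPM in vector A, B and C, 90.6, 65.6 and 78.0 CPM in clone A1 and 45.7, 50.3 and 38.3 CPM in clone A4. Every clone A4 library lay below all 6 others. SNRPD1 differed by -0.65 (SE 0.192, 95% interval -1.06 to -0.23, edgeR adjusted p 0.477) between clone A4 and vector and by -0.80 (SE 0.193, edgeR adjusted p 0.235) between clone A4 and clone A1. With GC correction the edgeR adjusted p was 0.0498 and 0.0323, where 127 and 169 of all genes were called. The first also passed with voom (233 of all genes called) and the second with DESeq2 (246). SNRPD1 was thus called in 2 of 17 alternatives in each of these comparisons. SNRPG, the Sm G protein, measured 98.4, 65.0 and 75.0 CPM in clone A1 against 55.9, 53.1 and 55.8 CPM in the vector libraries, with no overlap, as for 14.2% of all genes in that comparison. Its log2 fold change was 0.53 in clone A1 (SE 0.203), at an adjusted p of 0.535 by edgeR.

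The import receptor KPNB1 and the Cajal body proteins COIL, WRAP53 and SART3 gave 0 of 4 past the threshold in every comparison. COIL (coilin), the scaffold of the Cajal body where snRNPs mature, measured 73.0, 60.3 and 67.3 CPM in vector A, B and C and 44.5, 50.8 and 38.9 CPM in clone A4, with no overlap, as for 12.1% of all genes there. Its log2 fold change in clone A4 was -0.58 (SE 0.189, 95% interval -0.99 to -0.17, edgeR adjusted p 0.585). COIL was the 1 gene of the 4 with an unadjusted p under 0.05 by edgeR. This held in clone A4 against vector (5.25% of all genes) and in the NCBP2 arm (5.71%). In clone A1 it was at 46.2, 58.0 and 67.0 CPM, a log2 fold change of -0.23 (SE 0.189).

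**Figure D4:**
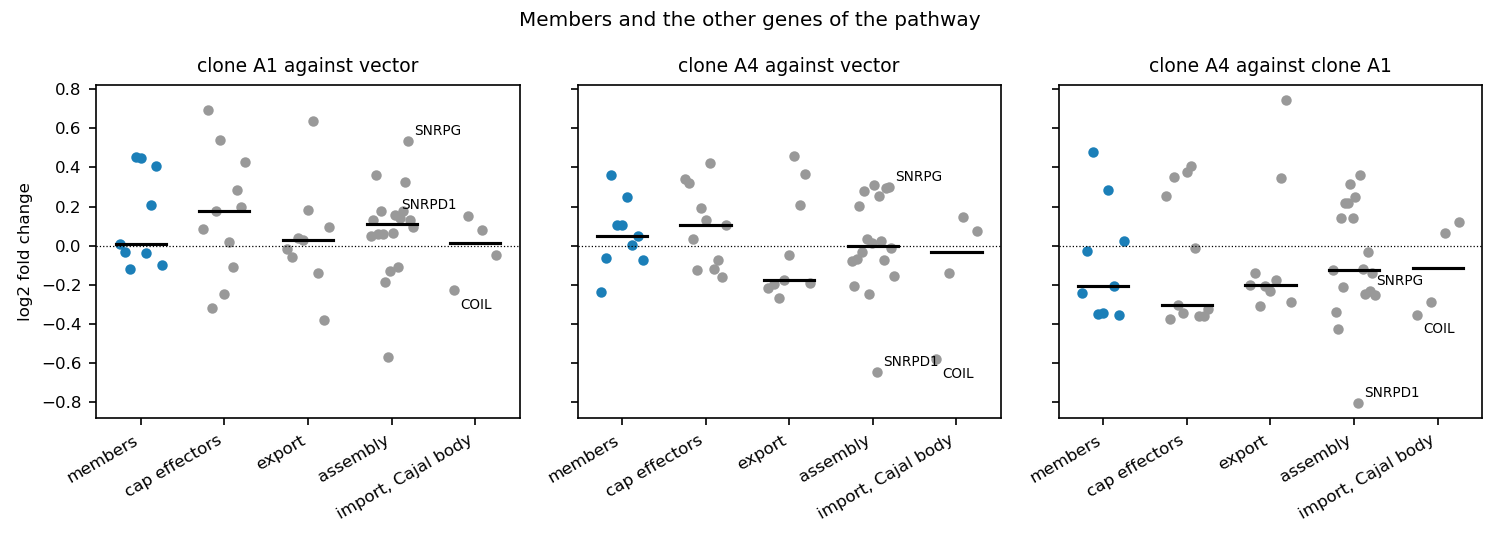
Log2 fold changes of the 9 members (blue) and of the other genes tested in each list (grey), with the median of each list as a black line, in 3 comparisons. SNRPD1 (-0.65) and COIL (-0.58) are the lowest of their lists in clone A4 against vector.

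The cargo itself varied widely between libraries. Of 14 snRNA genes listed, 13 were matched and 7 tested, with 0 past the threshold by edgeR in every comparison. At an unadjusted p under 0.05 there was 1, RNU5A-1 in clone A1, where 7.51% of all genes had such a p. RNU5A-1 measured 104.8, 110.3 and 69.6 CPM in vector A, B and C, 377.2, 195.5 and 121.0 CPM in clone A1 and 60.5, 213.5 and 85.0 CPM in clone A4. All of clone A1 lay above the vector libraries, though by little in replicate C. In that comparison 14.2% of all genes did not overlap. The log2 fold change of RNU5A-1 was 1.28 (edgeR adjusted p 0.491). RNU5A-1 was highest in clone A1 replicates A and B and clone A4 replicate B. These libraries also had the largest shares of reads aligning to several places (16.0%, 16.3% and 14.4%). That share was 8.04% in clone A1 replicate C and 11.1%, 10.5% and 7.61% in vector A, B and C. A link between the share and RNU5A-1 was not tested. Without the filter on low counts, edgeR called both RNU5A-1 and RNU5B-1 in clone A1 against vector (adjusted p of RNU5A-1 6.15e-06) and between the clones (0.00403). In that setting 312 and 231 of all genes were called in these comparisons. RNU5A-1 was called in 1 of 17 alternatives in each, with edgeR's unfiltered fit the only one. RNU5B-1 ran from 117.4 to 1066 CPM, and RNU4-1 from 227.7 CPM in clone A4 replicate A to 1537 CPM in clone A1 replicate A. The U1 copies listed were each at 1.07 CPM or less, and RNU2-1 and RNU12 had 0 counts. RNU1-3, which had the smallest p of the list in clone A4, had 4 counts over that clone. Copies of an snRNA share much of their sequence, and reads that align to several places are not in the counts. Low counts of the U1 copies and RNU2-1 therefore do not show how much U1 or U2 RNA the cells held. How fully these libraries capture RNAs as short as RNU4-1 (141 bases) was not tested.

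For each member, the protein-coding gene with the most similar log2 CPM profile was sought among 11544 candidates. Over 9 libraries the nearest to NCBP1 was NARS1 (Pearson r 0.97), to NELFE PCDHGC3 (0.99) and to SNUPN DEPDC4 (0.94). These 3 were also nearest over the 8 libraries without clone A1 replicate A, at 0.96, 0.98 and 0.91. For the other 6 members the nearest gene changed, as for SRRT from HSPB1 (0.99) to LRCH4 (0.99). Each is the highest of many correlations over few libraries.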

How the data were processed

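Total RNA was extracted on Direct-zol columns and sequenced after ribosomal RNA depletion (KAPA RNA HyperPrep), per the labels' protocols, while the labels' molecule field names polyadenylated RNA. The submitters' processing notes name STAR 2.7.1a and GRCh38 without their roles, and the counting program and annotation are not given in the sources used here. The deposited tables hold raw counts per gene, as whole numbers. Of the 3 count columns, the one with most stranded gene counts (column 3) was used. The 4 leading lines that name no gene held 44.5% to 63.6% of reads and were left out. Of 60609 identifiers, 60295 were matched to GENCODE 44.

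Counts were filtered (filterByExpr), TMM-scaled and tested in edgeR 4.0.16 (R 4.3.3, limma 3.58.1, DESeq2 1.42.0), robust quasi-likelihood, with Benjamini-Hochberg adjustment over all 21682 genes. A fit with 2 groups gave the NCBP2 arm and a fit with 3 groups the clones. SE and 95% intervals come from the F statistics of these fits, and log2 CPM has a prior count of 2. The scripts were tested on simulated data. The members were a fixed list of names. The other lists and the tests were chosen with earlier results of these data known. The naming rule covers all members, NCBP2, called pathway genes, and the gene of smallest p per list in each clone against vector. Alternatives were another scaling, no filter, DESeq2, voom, unstranded counts, a replicate block, leaving out each library, fewer groups, sums per clone and a GC correction added later (lowess per library). A log2 fold change whose interval spans 0 was not read as a change, and higher or lower then describes only the measured values of these libraries.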

Additional observations from a re-analysis of the deposited data

Results flagged for a closer look

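PHAX in the 6 NCBP2 libraries had 1 value far from the others. Clone A1 replicate A measured 100.2 CPM and the next highest library 66.3 CPM, a gap of 0.710 of the whole range where 0.625 is the 95% limit for 6 values. The 9 members and NCBP2 gave 10 such groups, and chance marks about 1 group in 20. The same library had the lowest SRRT (28.4 CPM) and NELFE (19.3 CPM) of all 9, and its part in the PHAX value is measured above by leaving it out.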

How the results depend on the processing

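The count of called members was 0 of 9 in all 4 comparisons under every alternative run, with a smallest adjusted p of 0.324. Of 612 member values under alternatives, 45 changed sign, each from a value of 0.29 or smaller in size and with an interval spanning 0. The number of all genes called moved far more. In the order of NCBP2 arm, clone A1 and clone A4, each set against vector, and then the 2 clones set against each other, it was 4, 14, 25 and 35 in the tests reported. It was 20, 312, 163 and 231 without a filter, 108, 274, 185 and 246 by DESeq2, 216, 297, 233 and 149 by voom, and 50, 158, 127 and 169 with GC correction. RLE scaling called 8 higher and 3 lower genes in clone A1 instead of 8 and 6, and GC correction 45 and 113. In clone A1 it was 7 with only the 6 libraries compared. With counts summed per clone, the NCBP2 arm gave 0 (906 at an unadjusted p under 0.05 by edgeR). With the letter as a replicate block the counts were 13, 38, 53 and 51, and the members stayed at 0. The letters were not taken as pairs, since 3 of the 9 same-letter pairs had a correlation of deviations under 0.1 (lowest -0.10). The highest same-letter value was 0.18, and pairs of different letters ran from -0.27 to 0.22. These values do not settle whether the letters pair the libraries. Leaving out 1 library gave 1 to 8, 3 to 14, 7 to 41 and 10 to 56 called genes. NCBP2 in clone A1 lost its call in 7 of 17 alternatives, with adjusted p up to 0.148. SNUPN, at 193 to 293 counts, had the largest counting error of the members, at 5.84% to 7.20% per library. Its spread in clone A1 was wider, with an SD of 25.2% of the mean.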
